A study of Mus musculus with 3 samples.

Results

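The T cell receptor variable and constant genes are the gene segments that code for the antigen-binding and membrane-proximal parts of the receptor chains. Every gene that GENCODE release M21 types as a T cell receptor variable or constant gene was taken, including genes with 0 counts, which gave 152 genes of the 53342 in the count table. They are 144 variable and 8 constant genes. The alpha locus holds 111 of them (110 variable and 1 constant), the beta locus 24 (22 and 2), the gamma locus 11 (7 and 4) and the delta locus 6 (5 and 1). The samples are whole lungs of 3 male C57Bl/6 mice, called mouse 4, 5 and 6 after the digit in their labels. All 3 were given intratracheal microparticles of Mycobacterium abscessus in 50 µL, equal to 1000000 bacteria, and then daily doses of 5 µg under the skin for 3 weeks of MIA-602, which blocks the receptor for growth hormone-releasing hormone. They form 1 labelled group and share both agents. Mice without the antagonist or the particles were not analysed here, so nothing below measures an effect of either. The age of the mice is not given in the sources used here.

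A T cell receptor is a pair of chains, alpha with beta or gamma with delta. Each chain gene is assembled in the thymus when a variable segment is joined to a joining segment, with a diversity segment between them in beta and delta, and the joined exon is spliced to a constant gene. A bulk lung library therefore reports the use of variable genes summed over all T cells of the organ, while the constant genes report each chain as a whole. Alpha beta cells include the CD4 and CD8 T cells of lung and of granulomas, and gamma delta cells include populations that settle in lung and other barrier tissues before birth. The antigen-contacting CDR3 loop starts at a conserved cysteine at the end of the variable segment and is completed by the join. The CD3 chains carry the signal of either receptor into the cell.

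The beta variable genes with the most counts can be told apart by sequence, with 99.7 to 100% of their 50-base windows in no other annotated transcript, and the last 45 germline coding bases of 8 of them are shown 5′ to 3′, with the in-frame cysteine codon that opens CDR3 in capitals. They were read from the GENCODE M21 transcripts (build GRCm38, also named mm10) and lie on the plus strand of chromosome 6.
Trbv3 (chr6:41048784-41048828): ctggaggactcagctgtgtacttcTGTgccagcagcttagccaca
Trbv13-2 (chr6:41121788-41121832): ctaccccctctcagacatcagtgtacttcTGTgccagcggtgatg
Trbv15 (chr6:41141614-41141658): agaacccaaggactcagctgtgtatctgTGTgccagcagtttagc
Trbv13-1 (chr6:41116424-41116468): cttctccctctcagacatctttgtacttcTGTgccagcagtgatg
Trbv13-3 (chr6:41130541-41130585): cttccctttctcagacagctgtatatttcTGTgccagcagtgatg
Trbv16 (chr6:41152186-41152230): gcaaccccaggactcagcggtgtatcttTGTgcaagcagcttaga
Trbv1 (chr6:40891841-40891885): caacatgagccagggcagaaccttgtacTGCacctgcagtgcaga
Trbv20 (chr6:41188933-41188977): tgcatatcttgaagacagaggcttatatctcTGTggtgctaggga
Trbv13-2 and Trbv13-3 differ at 32 of 340 coding bases.

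Several alpha variable genes, by contrast, exist in near-identical copies, because the middle of the locus is repeated in C57Bl/6. Copies carry a d or an n in their names. Trav11, the segment of the invariant receptor of natural killer T cells, and its copy Trav11d are identical over all 342 coding bases compared, and their ends are shown in the same way.
Trav11 (chr14:53519815-53519859, plus strand): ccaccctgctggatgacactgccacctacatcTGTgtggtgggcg
Trav11d (chr14:52824868-52824912, plus strand): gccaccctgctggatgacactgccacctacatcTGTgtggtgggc
Trav6-3 and Trav6d-3 differ at 1 of 338 coding bases, near the end of the segment, shown in capitals in the following 61 bases.
Trav6-3 (chr14:53430317-53430377, plus strand): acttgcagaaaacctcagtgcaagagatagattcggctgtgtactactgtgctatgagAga
Trav6d-3 (chr14:52726859-52726919, plus strand): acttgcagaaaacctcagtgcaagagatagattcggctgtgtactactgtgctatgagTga
The beta constant genes are also alike. Trbc1 and Trbc2 differ at 23 of 518 coding bases, and 14 of the differences, in capitals, fall in these 90 bases.
Trbc1 (chr6:41539235-41539324, plus strand): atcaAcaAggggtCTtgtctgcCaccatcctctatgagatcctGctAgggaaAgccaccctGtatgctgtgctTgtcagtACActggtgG
Trbc2 (chr6:41547778-41547867, plus strand): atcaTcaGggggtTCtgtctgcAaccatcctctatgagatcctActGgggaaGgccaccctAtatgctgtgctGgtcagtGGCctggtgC
A read is assignable to 1 member only where it covers such a base. The share of 50-base windows of a gene that occur in no other annotated transcript is given below as its own windows.

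Mouse 4 had 43845715 counts in all, mouse 5 35674761 and mouse 6 31579465. CPM are counts per 1000000 of the scaled library, and 1 count equals 0.0232, 0.0277 and 0.0315 CPM. The members took 8831, 5958 and 7886 counts, or 0.0201%, 0.0167% and 0.0250% of the libraries, and constant genes held 89.8% of these counts. All 8 T cell markers on a list of CD3, CD4, CD8 and Lck genes reached 1 CPM in every mouse, with summed levels of 341, 253 and 395 CPM. None of 4 thymocyte genes did: Ptcra, the surrogate alpha chain of immature thymocytes, was at 0 counts, and the recombinase gene Rag1 had 6, 2 and 3 counts. Rag2 had 0, 0 and 1 counts, and Dntt, the highest of the 4, had 20, 15 and 21. Lung markers matched the tissue label, at 24390, 44830 and 39640 CPM over 4 genes. Markers of skeletal muscle summed to 4185, 1524 and 1311 CPM and of squamous epithelium to 341, 126 and 110 CPM, highest in mouse 4, and their part in the results below was not tested.

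At least 1 count was found in 105 of the 152 members, and 47 were at 0 in every mouse. All 8 constant and all 22 beta variable genes had counts. Of the 110 alpha variable genes 65 had counts, as had 6 of 7 gamma and 4 of 5 delta variable genes. With the stricter demand of 3 counts in every mouse, 38 members remained, namely 7 constant genes and 9 alpha, 17 beta, 3 gamma and 2 delta variable genes. Most single variable genes therefore rest on few reads. A gene at 0 may still have been transcribed below 3 counts, which equal 0.0696, 0.0830 and 0.0946 CPM in mice 4, 5 and 6.

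Trbc2 (ENSMUSG00000076498, chromosome 6, 41546730 to 41548352), the downstream beta constant gene, stood highest of the constant genes. It had 3096, 1951 and 3011 counts in mice 4, 5 and 6, which gives 73.6 ± 20.6 CPM (SD, n = 3). Trbc1 (ENSMUSG00000076490, 41538218 to 41539881), the upstream beta constant gene, had 1479, 1067 and 1348 counts and 35.5 ± 6.57 CPM. In all 3 mice Trbc2 lay above Trbc1, by 2.22 ± 0.223 times per kilobase of exon. Own windows made up 56.0% of Trbc2 and 59.5% of Trbc1, so this ratio can shift with how shared reads were counted, and the sources used here do not give that.

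Trac (ENSMUSG00000076928, chromosome 14, 54220521 to 54224206), the single alpha constant gene, had 2382, 1467 and 1922 counts and 52.2 ± 10.4 CPM, with every window its own. Like both beta constant genes it was lowest in mouse 5 and highest in mouse 6. Among gamma constant genes on chromosome 13, Tcrg-C1 (ENSMUSG00000076749, 19214103 to 19217024) had 340, 295 and 248 counts, an even level of 7.96 ± 0.178 CPM. Tcrg-C2 (ENSMUSG00000076752, 19304649 to 19307551) had 253, 168 and 230 counts and 5.92 ± 1.30 CPM. Tcrg-C4 (ENSMUSG00000076757, 19344558 to 19352756) had 103, 74 and 112 counts and 2.66 ± 0.778 CPM. Tcrg-C1 exceeded Tcrg-C2 in each mouse, by 1.33, 1.74 and 1.07 times per kilobase of exon, so the order held while the size of the gap varied. Tcrg-C3 (ENSMUSG00000091682, 19260884 to 19263528) was nearly silent at 9, 2 and 3 counts. Trdc (ENSMUSG00000104876, chromosome 14, 54142851 to 54148868), the delta constant gene that lies inside the alpha locus, had 235, 305 and 270 counts and 7.47 ± 1.74 CPM. It was the only constant gene with its lowest level in mouse 4. The 4 markers of NK cells, Ncr1, Klrb1c, Eomes and Gzma, summed to 48.5, 58.9 and 62.0 CPM in mice 4, 5 and 6. The sums rose in the same order as Trdc, and Gzma held most of each. Of the single genes, Klrb1c and Gzma followed this order, while Ncr1 was lowest in mouse 6 and Eomes in mouse 5. The part of these markers in the level of Trdc was not tested.

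Per kilobase of exon the constant genes ranked beta, alpha, gamma and delta in every mouse. Their summed levels were 150, 117 and 194 CPM per kilobase for beta in mice 4, 5 and 6, 59.1, 43.4 and 64.8 for alpha, 17.7, 16.1 and 20.1 for gamma, and 1.41, 2.18 and 2.20 for delta. No locus overlapped its neighbour in this order. Alpha stood at 0.366 times beta (log2 ratio -1.45 ± 0.12), beta at 8.41 times gamma (3.07 ± 0.20), alpha at 3.07 times gamma (1.62 ± 0.16) and gamma at 9.45 times delta (3.24 ± 0.39). Each of the 6 ratios had the same sign in 3 of 3 mice and an exact two-sided sign-flip p of 0.25, adjusted 0.25, which is the smallest value 3 mice can give. The annotated Trdc gene has 3865 exonic bases, of which 458 are coding. Divided by coding length instead, gamma stood at 2.01 times delta, alpha at 7.85 times delta (against 29.05 by exon length), beta at 12.8 times delta (against 79.5) and alpha at 0.613 times beta. The order of the 4 loci was the same by either length.

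**Figure D1:**
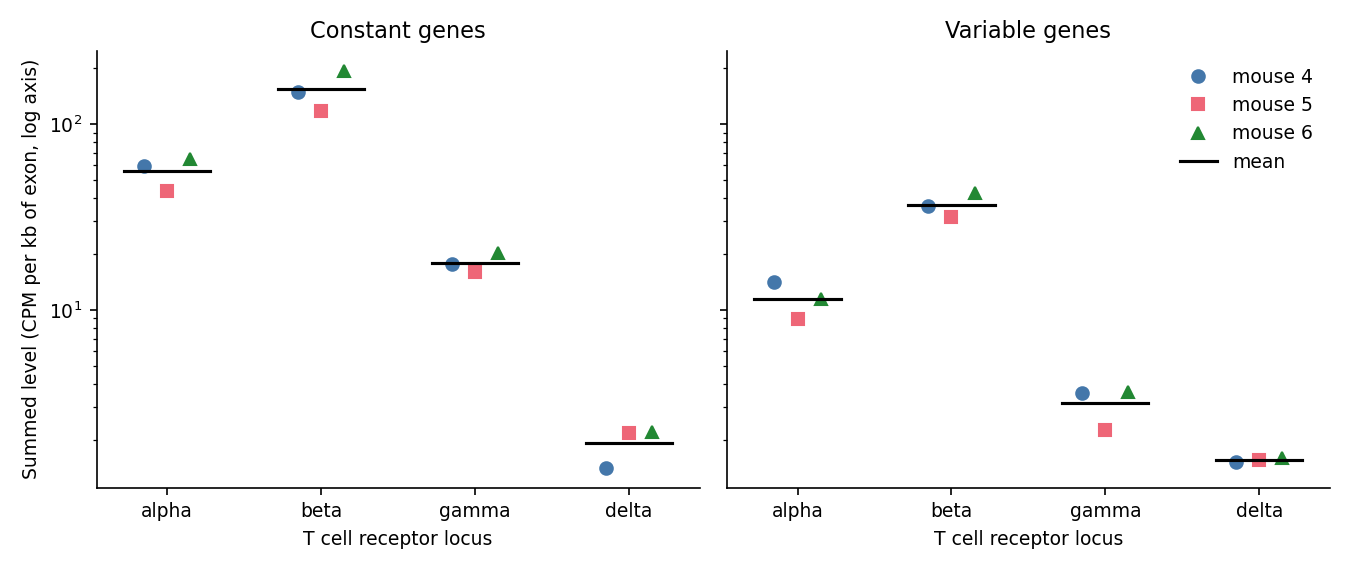
Summed level of the constant genes (left) and variable genes (right) of each locus in CPM per kilobase of exon on a log axis. Points are the 3 mice and bars their mean, and beta lies above alpha, alpha above gamma and gamma above delta in every mouse in both panels, with delta variable genes at 1.56 and gamma variable genes at 3.14.

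Variable genes followed the same order at lower levels. Summed over a locus they reached 36.8 ± 5.61 CPM per kilobase for beta, 11.5 ± 2.61 for alpha, 3.14 ± 0.766 for gamma and 1.56 ± 0.0385 for delta. The log2 ratios were -1.69 ± 0.29 for alpha over beta, 1.88 ± 0.20 for alpha over gamma, 3.57 ± 0.22 for beta over gamma and 0.98 ± 0.39 for gamma over delta, with the same sign in 3 of 3 mice and an exact sign-flip p of 0.25 for each of the 6 pairs. Trav genes named for both alpha and delta can be joined in either chain. With these 10 genes counted as delta, gamma over delta turned to a log2 ratio of -0.10, alpha over delta became 1.54 (against 2.86) and beta over delta 3.47 (against 4.55). Scaled to own windows, alpha variable genes lay closer to beta, at a log2 ratio of -0.56. This scaling kept only genes with at least 10% own windows and so left out 42 alpha genes, which held 7 counts. The full count of each kept gene was divided by its exon length times its share of own windows.

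Constant genes exceeded variable genes by 4.91 ± 0.763 times per kilobase in alpha, 4.13 ± 0.409 times in beta and 5.89 ± 1.10 times in gamma, but by 1.23 ± 0.266 times in delta. In delta the ratio was 0.928 in mouse 4 and above 1 in the others, at 1.40 and 1.38. The delta value rests on the exon length of Trdc, most of which is not coding. With constant genes divided by coding length and variable genes by exon length, mean levels were 16.3 and 1.56 CPM per kilobase in delta. They were 32.2 and 3.14 in gamma, 127 and 11.5 in alpha, and 209 and 36.8 in beta. Without division by length the ratios were 11.9 ± 1.85, 7.54 ± 0.722, 12.3 ± 2.36 and 11.1 ± 2.38 for alpha, beta, gamma and delta. As shares of all member counts, beta held 59.6 ± 2.10%, alpha 27.5 ± 1.87%, gamma 8.86 ± 0.743% and delta 4.07 ± 1.31%. The delta share was 2.98% in mouse 4 (95% Wilson interval 2.64 to 3.35), 5.52% in mouse 5 (4.97 to 6.13) and 3.70% in mouse 6 (3.31 to 4.14). Mice 4 and 6 overlapped in their intervals and mouse 5 stood above both. Per kilobase of exon the delta share averaged 1.28%. Wilson intervals here cover counting error within 1 library only, not variation between mice. They treat reads as independent molecules, which the sources used here do not show, and are too narrow where reads are not.

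Beta variable genes were used broadly, with Trbv13-2 and Trbv3 at the top. The 22 genes held 604, 444 and 529 counts in mice 4, 5 and 6. Trbv13-2 (the Vβ8.2 segment, chromosome 6, 41121396 to 41121832), used by many natural killer T cells, had 89, 55 and 42 counts, or 14.7%, 12.4% and 7.94% of beta variable counts. Its interval in mouse 4 (12.1 to 17.8%) did not meet that in mouse 6 (5.93 to 10.6%). This was the only one of the 66 comparisons of a beta gene between a pair of mice in which intervals did not meet. Trbv3 (41048290 to 41048828) had 64, 51 and 66 counts and 11.5 ± 0.941%, and it led in mouse 6, where Trbv13-2 ranked 4th. Next came Trbv15 with 42, 31 and 39 counts, an even share of 7.10 ± 0.234%. Trbv13-1 (34, 29 and 43 counts) held 6.76 ± 1.27%, and Trbv16 (48, 34 and 22 counts) 6.59 ± 2.11%. Trbv16 ranked 3rd in mice 4 and 5 but 13th in mouse 6.

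The Trbv13 family as a whole, which with Trbv29 and Trbv1 supplies the beta chains of natural killer T cells and is used by conventional T cells too, held 27.6%, 25.5% and 21.7% of beta variable counts. Trbv13-3 (Vβ8.1) had 44, 29 and 30 counts. Trbv29 (Vβ7) held a near-constant 5.06 ± 0.385%, from 30, 21 and 29 counts. Trbv1 (Vβ2) had its highest share in mouse 6, where Trbv13-2 had its lowest, with 27, 23 and 43 counts and shares of 4.47%, 5.18% and 8.13%, though its intervals in mice 4 (3.09 to 6.43%) and 6 (6.09 to 10.8%) still met. Trbv20 had 40, 25 and 27 counts. At the other end, Trbv4, Trbv5, Trbv21, Trbv23 and Trbv30 had 2 to 5 counts each over all mice. Trbv4 and Trbv5 lie within the long noncoding gene 5830405F06Rik on the same strand, so their few reads cannot be given to either with certainty. Across the 22 genes, shares correlated between mice with Pearson's r of 0.959 for mice 4 and 5, against 0.770 for mice 4 and 6, and 0.871 for mice 5 and 6. These describe genes that share a library and are not independent.

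**Figure D2:**
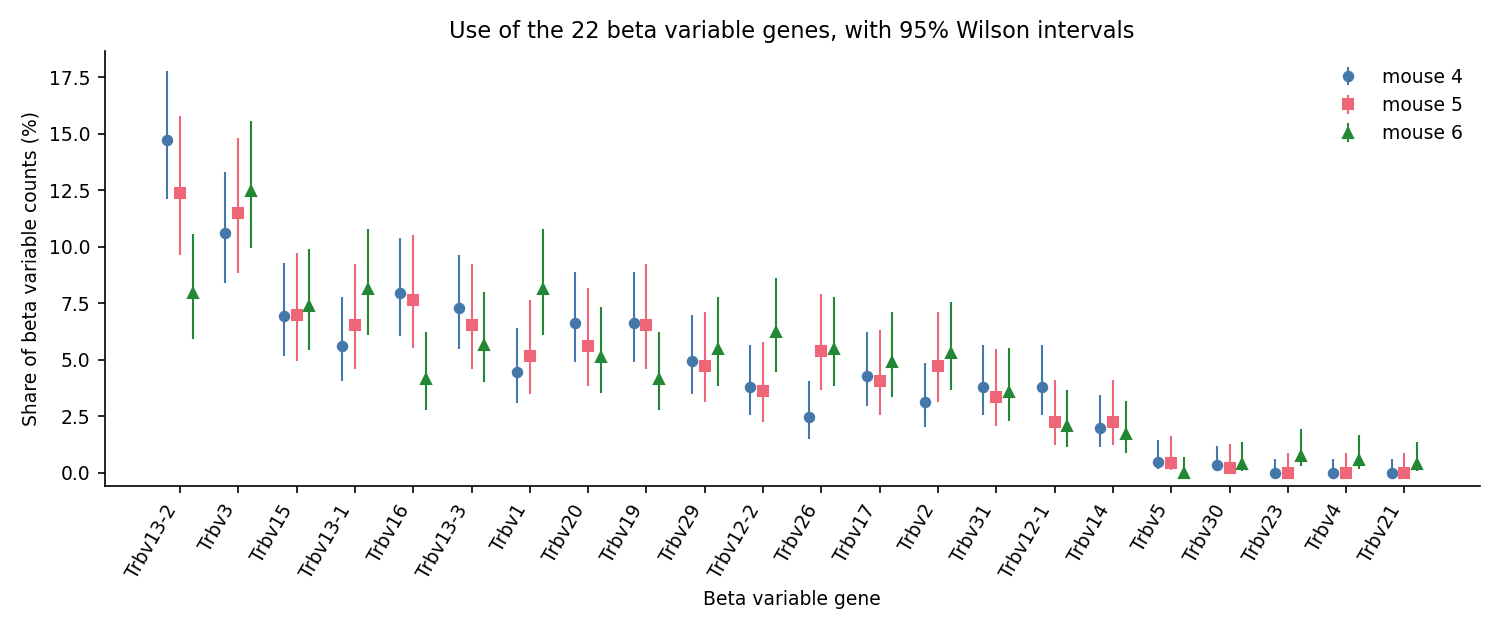
Share of beta variable counts in percent for each of the 22 beta variable genes, with a point for each mouse and bars for the 95% Wilson interval. Trbv13-2 and Trbv3 lead, 15 others lie in a gradual decline, and the last 5 are near 0. For Trbv13-2 the bars of mouse 4 and mouse 6 do not meet.

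Alpha variable genes gave few counts, spread thinly. The 110 genes held 235, 125 and 139 counts in mice 4, 5 and 6, less than the 22 beta genes did, and none reached 1 CPM in every mouse. Trav4-4-dv10 (ENSMUSG00000096096, chromosome 14, 53683647 to 53684177) came first by mean CPM but had 24, 6 and 4 counts, so that its place rested on mouse 4. Its mean share of alpha variable counts was 5.96% over the 3 mice, below that of Trav9-1, and 3.84% without mouse 4. Trav9-1 (53488045 to 53488567) had 11, 8 and 10 counts and the highest mean share, at 6.09% of alpha variable counts. Its germline end carries the conserved codon as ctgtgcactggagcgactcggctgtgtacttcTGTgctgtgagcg (chr14:53488523-53488567, plus strand). Trav16 followed with 14, 3 and 5 counts, Trav9-2 with 11, 5 and 5, Trav13-1 with 11, 7 and 3, and Trav17 with 10, 2 and 7. Trav6-3 had 9, 6 and 4 counts, Trav8-1 8, 2 and 7, Trav12-2 9, 3 and 5, and Trav14n-3 5, 4 and 6. Raw counts of many of these were highest in mouse 4, the deepest library. By CPM, Trav9-1, Trav8-1 and Trav14n-3 were highest in mouse 6 and the others listed here in mouse 4. Summed over the locus, alpha variable genes reached 14.2, 8.95 and 11.4 CPM per kilobase in mice 4, 5 and 6, whereas Trac was highest in mouse 6. No alpha gene had intervals that stood apart between any pair of mice. Shares correlated across the 110 genes with Pearson's r of 0.633, 0.618 and 0.583 for mice 4 and 5, 4 and 6, and 5 and 6.

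Most zeros of the alpha locus lay where sequences are repeated. Of the 39 alpha variable genes with no window of their own, 37 were at 0 counts, and Trav5n-4 and Trav13n-3 had 1 count each. Of the 29 with some but under 50% own windows, 25 had counts, 219 in all. Of the 42 with at least 50%, 38 had counts, 278 in all, and the exceptions were Trav4-2, Trav15-1-dv6-1, Trav18 and Trav23. Genes with more own windows tended to have more counts across the 110 genes (Spearman's rho of 0.627, a description over genes of the same libraries), and with 100-base windows rho was 0.651. The n and d series, 28 and 34 genes, held 12.2% and 10.4% of alpha variable counts, against 77.0% for the 46 genes with neither letter. By position, the 20 genes with at least 10 summed counts lay 375 to 869 kb upstream of Trac, while the variable genes extend from 243 to 1793 kb. The 41 genes in that stretch held 78.4% of alpha variable counts. The stretch was set by the genes with the most of these same counts, so a large share was built in. Trav11 and Trav11d were both at 0 counts, and neither has a 50-base window of its own. Their 0 therefore gives no measure of natural killer T cells. Trav1, the segment of mucosal-associated invariant T cells, has all its windows to itself and had 1, 0 and 0 counts. Trav6-3 had 19 counts in all and its copy Trav6d-3 5, and the pair differ at a single coding base. Own windows made up 12.8% of Trav6-3 but 2.24% of Trav6d-3, so these counts do not compare their use.

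**Figure D3:**
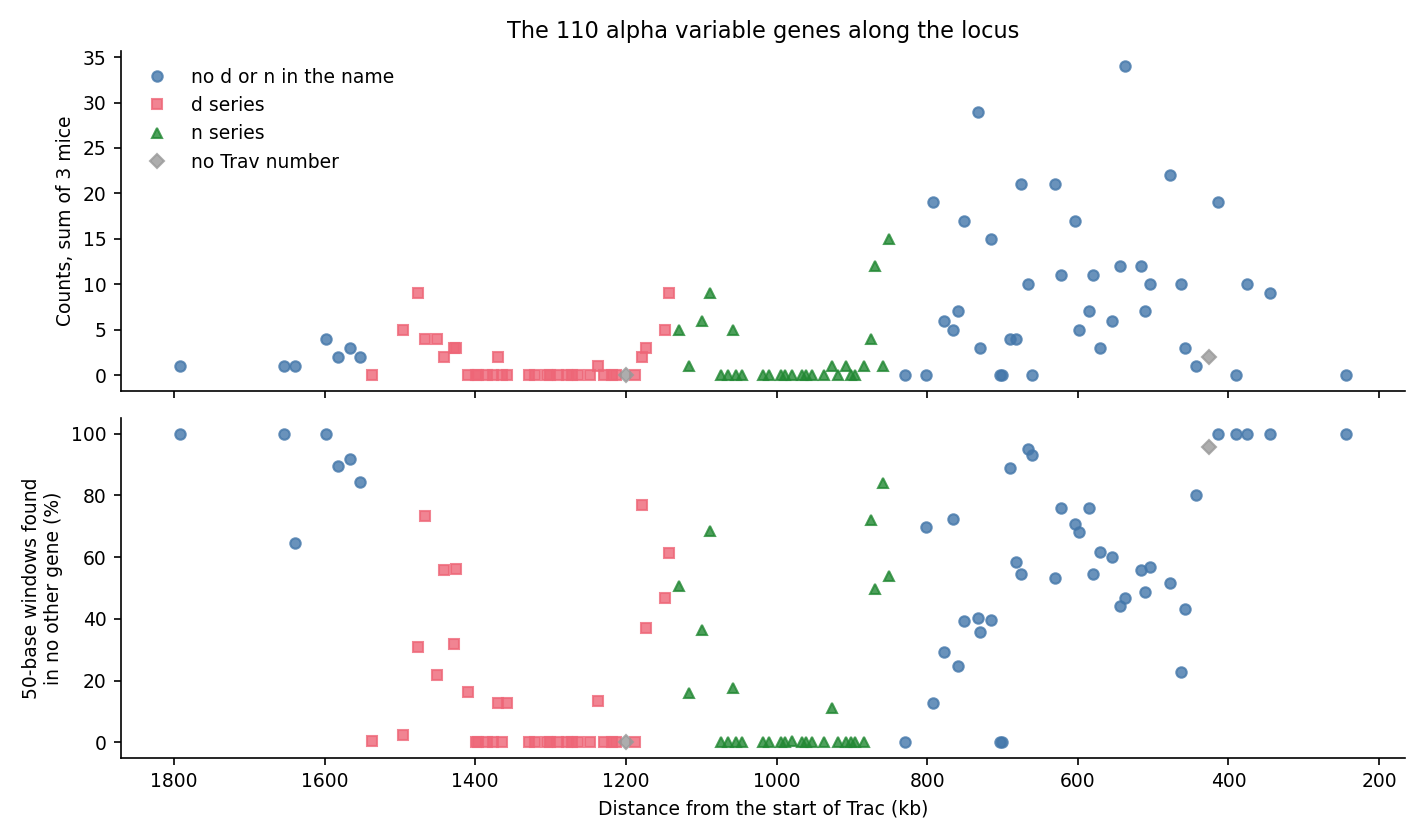
The 110 alpha variable genes by distance from the start of Trac in kilobases. The upper panel gives counts summed over 3 mice and the lower the percent of 50-base windows found in no other gene, coloured by the series in the gene's name. In the repeated middle most d and n genes lie at 0 in both panels, while the 20 genes with at least 10 counts lie between 375 and 869 kb.

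Gamma variable counts were led by Trgv2 in each mouse. Trgv2 (chromosome 13, 19336573 to 19337167, minus strand) is the variable gene of the inverted Tcrg-C2 cluster, and it had 32, 19 and 32 counts, or 47.8%, 52.8% and 61.5% of the locus' variable counts. The intervals, 36.3 to 59.5%, 37.0 to 68.0% and 48.0 to 73.5%, all met. Tcrg-V1, of the Tcrg-C4 cluster and common in spleen and liver, had 12, 7 and 4 counts. Tcrg-V4, of lymphoid and lung gamma delta cells, had 9, 6 and 7. Tcrg-V6, of the invariant receptor found in lung and uterus, had 10, 2 and 6. The gut-homing Tcrg-V7 had 3, 2 and 2 counts, Tcrg-V3 1, 0 and 1, and Tcrg-V5, the segment of epidermal gamma delta cells, 0 in every mouse although all its windows are its own. The share intervals of Tcrg-V1, Tcrg-V4 and Tcrg-V6 overlapped one another in each mouse. The last 45 coding bases of the main gamma and delta variable genes are given with the cysteine codon in capitals, and Trgv2 and Tcrg-V1 are nearly the same over this stretch.
Trgv2 (chr13:19336573-19336617, minus strand): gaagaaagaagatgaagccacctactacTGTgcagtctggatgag
Tcrg-V1 (chr13:19340410-19340454, plus strand): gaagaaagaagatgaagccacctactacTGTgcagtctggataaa
Tcrg-V4 (chr13:19185462-19185506, plus strand): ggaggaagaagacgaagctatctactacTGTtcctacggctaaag
Tcrg-V6 (chr13:19190885-19190929, plus strand): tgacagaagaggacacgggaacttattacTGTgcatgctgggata
Trdv4 (chr14:54075471-54075515, plus strand): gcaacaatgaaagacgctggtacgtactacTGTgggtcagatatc
Own windows made up 93.0% of Trgv2 and 75.4% of Tcrg-V1. By cluster, the 4 variable genes upstream of Tcrg-C1 summed to 22, 10 and 15 counts, while Tcrg-C1 itself had the most counts of the gamma constant genes. The order of constant genes and the order of their variable genes thus differed, with Tcrg-C1 above Tcrg-C2 but its 4 variable genes below Trgv2 in all 3 mice. Own windows made up 65.8% of Tcrg-C1 and 74.6% of Tcrg-C2.

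Trdv4, the Vδ1 segment that pairs with Tcrg-V6 in the invariant receptor of lung and uterus, led the delta variable genes. Its 16, 15 and 16 counts gave 0.371, 0.415 and 0.505 CPM in mice 4, 5 and 6 (0.430 ± 0.0679). Trdv4 held 57.1%, 62.5% and 72.7% of the delta variable counts. Trdv2-2 had 6, 6 and 4 counts, Trdv5 5, 2 and 2, Trdv1 1, 1 and 0, and Trdv2-1 was at 0. Trdv4 and the Trdv2 genes lie within antisense genes (Gm30275 and Gm43647), the 4 variable genes upstream of Tcrg-C1 within antisense Gm31887, and Trdv5 overlaps the end of Trdc on the opposite strand, and Trdc also overlaps antisense Gm43434. The sources used here do not say whether counting used strand, and counts of these genes may include reads of their partners. The markers of innate-like T cells Sox13, Blk, Il23r, Zbtb16 and Cd163l1 each reached 1 CPM in every mouse, with sums of 118, 126 and 113 CPM. Sox13 alone had 61.3, 75.2 and 60.4 CPM of these in mice 4, 5 and 6, and Il23r had 2.2, 1.5 and 1.7. Bulk lung does not give the cells these RNAs came from, so the sums do not measure innate-like T cells.

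**Figure D4:**
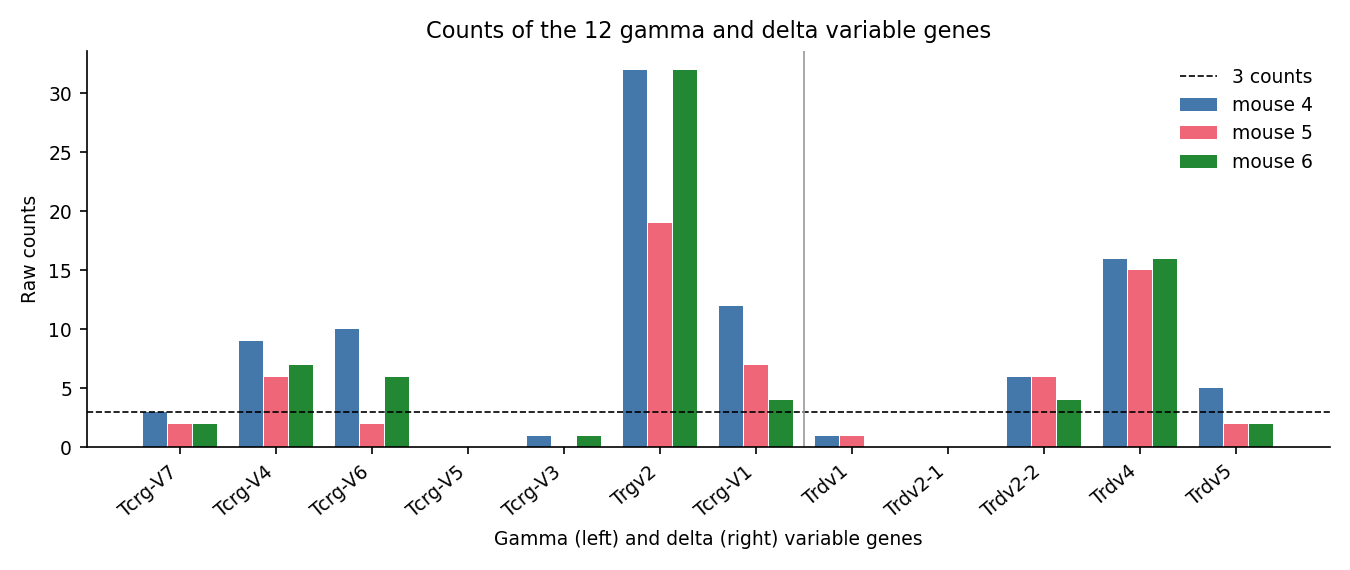
Raw counts of the 7 gamma and 5 delta variable genes in each mouse, with a dashed line at 3 counts. Trgv2 stands at 19 to 32 counts and Trdv4 at 15 to 16, and the other genes lie at 12 counts or fewer.

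Between mice, members varied without passing a test. The edgeR quasi-likelihood test of each gene's spread against the trend was made over 17636 genes that passed a filter on low counts, 25 of them members (7 constant, 16 beta, 1 gamma and 1 delta variable gene). No member passed after Benjamini-Hochberg adjustment over all genes, and neither did any gene of the table, a background of 0%. The smallest edgeR adjusted p of any gene was 0.806, so with 3 mice the lack of calls does not show that members were steady. Without adjustment 1 of the 25 fell under 0.05, against 4.92% of all genes, and limma gave the same counts of 0 adjusted calls and 1 unadjusted member. DESeq2 marked 102 genes as dispersion outliers, none of them a member. The unadjusted count depended on the mice. It was 4 of 24 tested members without mouse 4, where 1008 of all 17749 tested genes fell under 0.05. It was 1 of 26 without mouse 5 (886 of 18014 genes) and 0 of 26 without mouse 6 (865 of 18082 genes). The member under 0.05 with all 3 mice was Trbc2, with 71.9, 53.95 and 94.96 CPM in mice 4, 5 and 6. Its unadjusted p was 0.0245 (edgeR, adjusted 0.955). Its unadjusted edgeR p was 0.00249 without mouse 4 and 0.115 without mouse 6. With no filter, edgeR gave Trbc2 an adjusted p of 0.0158. The next smallest edgeR p-values belonged to Trac (0.0663, with 55.3, 40.6 and 60.6 CPM), Trbc1 (0.100), Trbv1 (0.137) and Trbv26 (0.141, with 15, 24 and 29 counts), each with an adjusted p over 0.95. The log2 ratio of dispersion to trend had a median of 0.54 over the 25 members and -0.29 over all tested genes, but -1.46 against -0.82 without mouse 6 and -1.68 against -1.76 by DESeq2. No tested member differed more than 2-fold between any pair of mice on the log2(CPM + 0.5) scale, while 2.54% of all tested genes did for mice 4 and 5. The share was 1.63% for mice 4 and 6, and 0.663% for mice 5 and 6. Most tested variable genes lie near 1 CPM, where the added 0.5 shrinks a fold. With no pseudocount no member passed 2-fold for mice 4 and 5 (4.75% of all tested genes did). Trbv26 (2.63-fold), Trbv1 (2.16-fold) and Trbv2 (2.002-fold) did for mice 6 and 4, where 3.47% of all genes did. Trbv12-2 (2.35-fold) and Trbv1 (2.13-fold) did for mice 6 and 5, where 2.18% of all genes did. Each was higher in mouse 6, and these folds rest on 15 to 43 counts a mouse.

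Most other genes of the receptor pathway were lowest in mouse 5 and highest in mouse 6, as Trac and Trbc2 were. Lck, the kinase that starts receptor signalling, had 71.4, 53.9 and 85.1 CPM in mice 4, 5 and 6, and the signalling chain Cd3e had 61.8, 42.2 and 66.2 CPM. The coreceptor Cd4 had 64.7, 40.3 and 66.2 CPM and the coreceptor Cd8a 25.1, 22.8 and 40.1 CPM. All 10 pathway genes (Cd3d, Cd3e, Cd3g, Cd247, Cd4, Cd8a, Cd8b1, Lck, Zap70 and Lat) were highest in mouse 6, and 9 were lowest in mouse 5, the exception being Cd8b1, lowest in mouse 4. None of the 10 passed the edgeR test after adjustment, and 6 fell under 0.05 without it (limma 0 and 5). With no filter, edgeR called Cd8a (adjusted p 0.0139), Cd4 (0.0223) and Lat (0.0335), among 629 calls in 30751 genes. The 6 became 8 without mouse 4, 3 without mouse 5 and 1 without mouse 6. Of all tested genes 4.92% fell under 0.05 with 3 mice. On leaving out mouse 4, 5 or 6 it was 1008 of 17749, 886 of 18014 and 865 of 18082 genes. Among the 25 tested members 18 were highest in mouse 6, as were 30.2% of all tested genes. Lowest in mouse 5 were 15 of the 25 and 36.8% of all tested genes. Tcrg-C1 and Trdc were among the members in another order. Summed B cell markers were also lowest in mouse 5 and highest in mouse 6, at 266, 197 and 302 CPM over 4 genes, and lung epithelial and endothelial markers were highest in mouse 5. Their part in the spread of the members was not tested. In bulk tissue fewer T cells and less receptor RNA per cell cannot be told apart.

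**Figure D5:**
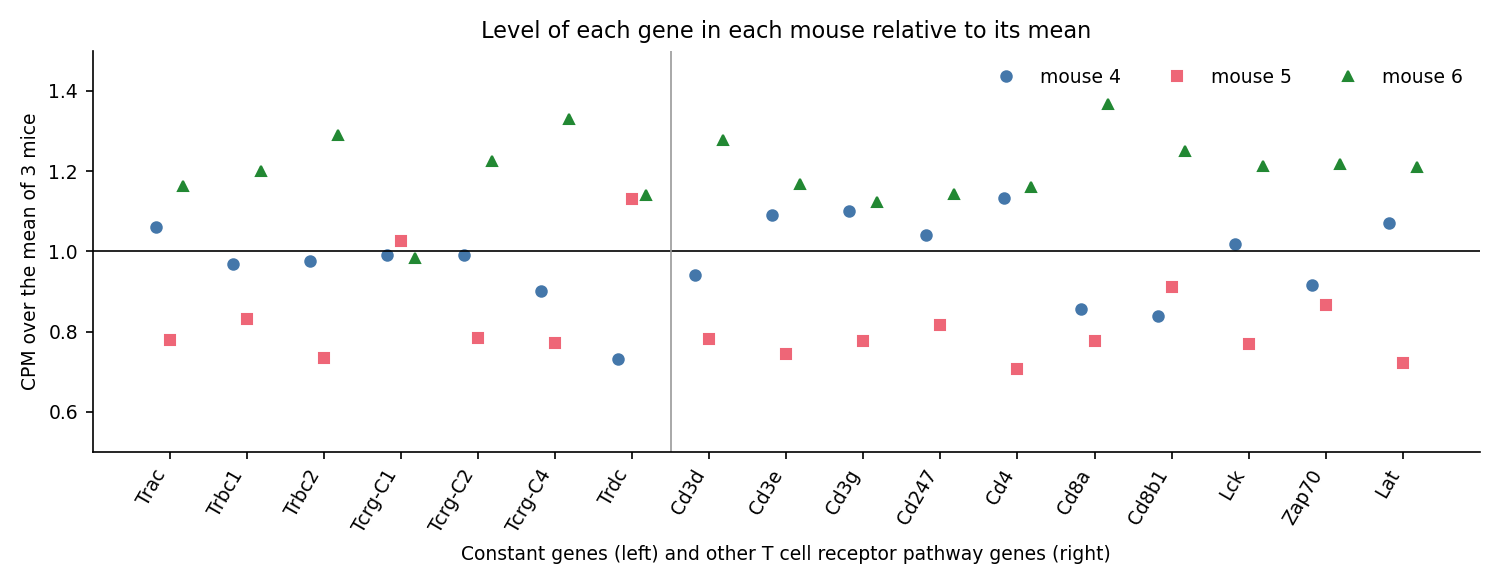
CPM of 7 constant genes (left of the line) and 10 other receptor pathway genes (right) in each mouse, divided by the mean of the 3 mice. Mouse 6 is highest at Trac, Trbc1, Trbc2, Tcrg-C2, Tcrg-C4 and all 10 pathway genes, while Tcrg-C1 is nearly level and Trdc is lowest in mouse 4.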

How the data were processed

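RNA of 3 mouse lungs, 1 library per mouse, was extracted with a Direct-zol kit and prepared with a Nugen Universal kit, per the labels. Tools in the submitters' processing notes are STAR 2.5.2a, Trim Galore 0.6.2 and bcl2fastq 2.17, with the build mm10. How reads were counted (tool, annotation, strand, multiply aligned reads) is not given in the sources used here. The authors deposited whole-number counts for each Ensembl gene, without normalization. GENCODE M21 matched 53237 of the 53342 identifiers and all 152 members. CPM used TMM factors, levels were divided by exon length, and own windows were counted over both strands of all annotated transcripts, not the whole genome.

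The spread of each gene was tested with edgeR 4.0.16 (older quasi-likelihood fit, robust, intercept alone, filterByExpr, upper-tail F test against the trend, Benjamini-Hochberg at 0.05) under R 4.3.3. It was tested on simulated counts first, and the outcome is not reported here. Locus ratios had an exact sign-flip test over 3 mice. Limma 3.58.1, DESeq2 1.42.0, other scaling, filters, lengths and leaving out each mouse were alternatives. Shares have 95% Wilson intervals and 3 counts were taken as the floor. The labels give 3 mice of 1 group, and no contrast was fitted.

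Genes named are all constant genes, the leading variable genes of each locus (10 alpha, 8 beta, 5 gamma, 5 delta), variable genes of invariant and tissue-resident T cells, the 5 members with the smallest spread p and 10 pathway genes. Some genes of the marker and pathway lists are not reported here. Genes named for low counts, sequence identity or overlap were chosen after their values were seen. The members and lists were chosen with earlier results of these data known.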

Additional observations from a re-analysis of the deposited data

Results flagged for a closer look

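Counts also fell on T cell receptor segments that are neither variable nor constant genes. The 13 beta joining genes held 285 counts over the 3 mice (107, 85 and 93 in mice 4, 5 and 6), the 51 alpha joining genes 233 (92, 41 and 100) and the 2 beta diversity genes 109 (43, 33 and 33). The single beta joining pseudogene held 22 counts (8, 6 and 8). Each of these groups was above the floor of 3 counts in every mouse. They drew attention because no value above uses them.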

How the results depend on the processing

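The sign of the 6 constant gene ratios and of 5 of the 6 variable gene ratios was the same under every alternative run. Gamma over delta for variable genes turned to -0.10 (log2) with the alpha and delta genes counted as delta. Locus shares moved: alpha to 21.3% on variable genes alone, 23.9% per kilobase of exon and 31.5% per kilobase of coding length, beta to 68.9%, 67.3% and 56.05%, gamma to 6.63% and 7.56% under the first 2, and delta to 1.28% per kilobase of exon. Raw counts moved constant over variable to 11.9 for alpha, 7.54 for beta, 12.3 for gamma and 11.1 for delta. With 3 counts asked in every mouse, 38 members had counts, against 105. Spread calls over all genes were 629 of 30751 with no filter (1 of 105 members, Trbc2), against 0. They were 102 of 17636 by DESeq2 dispersions (0 of 25 members). On leaving out a mouse they were 0 to 13 (13 of 17749 without mouse 4, 0 of 24 members). The causes were not tested. The coding length, own-window and no-pseudocount alternatives were chosen after the data were seen. Single variable genes rest on few counts, most of all in alpha, and depth limits any comparison of their use between mice. No paired analysis was possible because all samples form 1 group.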
